A study of Homo sapiens with 30 samples.

Results

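C/D box small nucleolar RNAs (snoRNAs) were followed through the immunoprecipitation of methylated RNA 5' ends in a melanoma cell line with and without the cap methyltransferase PCIF1. Members were taken as the rows of the deposited table whose gene identifier belongs to a gene with a symbol that starts with SNORD in GENCODE 44. This gave 121 of 16009 listed genes, out of 314 such genes in the annotation. SNORD38B stands under 2 identifiers with the same values, so that the 121 rows cover 120 loci, and SNORD22 names 2 separate loci.

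MEL624 is a human melanoma cell line. Control cells were wild type and received a random guide RNA, and the other cells carried a knockout (KO) of PCIF1. PCIF1 adds the N6-methyl group to the first transcribed adenosine beside the mRNA cap, which gives m6Am. In m6Am-Exo-Seq, fragmented RNA is treated with an exonuclease that spares capped 5' ends, and what remains (the input) is precipitated with an antibody against N6-methyladenosine (the IP), which also binds m6Am. The 12 libraries used here are 3 control inputs, 3 control IPs, 3 KO inputs and 3 KO IPs, with antibody 4 in every IP. RNA went through mRNA purification before the assay in every group, per the labels' protocols. The series' design text speaks of biological replicates without saying whether the KO replicates came from separate clones. If they share 1 clone, effects of the deletion and of that clone cannot be told apart. The p-values therefore reflect how far these libraries scatter, which may be technical in part. The 18 libraries of the antibody trial are not analysed here.

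C/D box snoRNAs fold so that a box C near the 5' end and a box D near the 3' end come together and bind the proteins fibrillarin, NOP56, NOP58 and SNU13. With a stretch complementary to ribosomal RNA most guide 2'-O-methylation of its nucleotides. A few members, such as U3, U8 and U14, are needed for cleavage of the ribosomal RNA precursor. Most human members lie in introns of host genes and are released from the spliced intron by trimming, which leaves them without a cap and without a poly(A) tail. A small capped set is transcribed from its own promoters.

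Reads on the listed genes averaged 3620471 in control inputs (3232562 to 4094070), 3243409 in KO inputs (2836120 to 3544669), 4283508 in control IPs (4035815 to 4625190) and 2032714 in KO IPs (1753164 to 2177874). The start region of PCIF1 held 49.4 to 57.8 CPM (read counts scaled to library size) in control inputs and 70.4 to 78.0 CPM in KO inputs. Reads there can lie outside the edited sequence and check nothing about the labels. Of 8 melanocyte markers looked for, MITF was listed, at a mean of 10.3 CPM in control inputs and 10.1 CPM in KO inputs, and the other 7 were not. No keratinocyte, fibroblast, leukocyte or endothelial marker looked for was listed.

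The sequences below are those on which the results turn, read 5' to 3' on the member's own strand from the hg38 genome at GENCODE 44 coordinates. Capitals mark box C (searched as ATGATGA or GTGATGA within the first 30 bases) and box D (CTGA within the last 30 bases). The U14 copies are shown because they share a function and a sequence yet come from 2 unlike host genes. They are SNORD14A (chr11:17074654-17074744, minus strand) and SNORD14B (chr11:17075779-17075868, minus) in RPS13, and SNORD14C (chr11:123059335-123059422, minus), SNORD14D (chr11:123058909-123058995, minus) and SNORD14E (chr11:123058077-123058161, minus) in HSPA8. SNORD32A (chr19:49489965-49490048, plus, in RPL13A) took the most reads in the inputs. SNORD72 (chr5:40832656-40832735, minus, in RPL37) stood high in KO IPs. SNORD57 (chr20:2656939-2657010, plus) and SNORD110 (chr20:2654212-2654286, plus) lie in introns of NOP56 and mark an extreme and an exception. U3, here SNORD3A (chr17:19188016-19188714, plus), is a capped member, of which the first 80 bases are given.
SNORD14A: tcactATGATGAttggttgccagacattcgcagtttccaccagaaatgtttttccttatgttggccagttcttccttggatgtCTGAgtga
SNORD14B: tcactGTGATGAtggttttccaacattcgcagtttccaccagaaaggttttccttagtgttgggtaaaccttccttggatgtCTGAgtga
SNORD14C: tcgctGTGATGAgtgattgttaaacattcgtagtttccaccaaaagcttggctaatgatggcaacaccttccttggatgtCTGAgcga
SNORD14D: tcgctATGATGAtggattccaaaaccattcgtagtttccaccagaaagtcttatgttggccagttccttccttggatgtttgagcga
SNORD14E: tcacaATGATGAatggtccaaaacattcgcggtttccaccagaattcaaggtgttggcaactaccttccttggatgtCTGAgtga
SNORD32A: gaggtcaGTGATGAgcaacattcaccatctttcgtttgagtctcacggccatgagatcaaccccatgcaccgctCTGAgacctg
SNORD72: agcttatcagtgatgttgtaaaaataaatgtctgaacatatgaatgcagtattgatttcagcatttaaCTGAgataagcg
SNORD57: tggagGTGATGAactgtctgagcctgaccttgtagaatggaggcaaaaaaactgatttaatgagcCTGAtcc
SNORD110: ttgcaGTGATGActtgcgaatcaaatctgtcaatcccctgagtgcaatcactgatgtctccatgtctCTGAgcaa
SNORD3A: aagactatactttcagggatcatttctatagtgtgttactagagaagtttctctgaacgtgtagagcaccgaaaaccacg

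The annotated label was checked on these letters. Box C was found in 73 members (60.3%), box D in 117 (96.7%) and both in 71 (58.7%). Over 15865 listed genes of at least 60 bases the shares were 0.801%, 12.9% and 0.542%, and over 91 listed genes for box H/ACA snoRNAs and small Cajal body RNAs, the other large snoRNA class, they were 3.297%, 18.7% and 3.297%. The longest run shared by all 5 U14 copies was 13 bases long, cttccttggatgt, just before box D. Members were 64 to 791 bases long, with a median of 79.

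Most members lay inside other genes. Of the 121 members, 118 lay inside a host gene on the same strand, and there were 62 hosts, of which 58 were listed. In all, 81 members lay in coding hosts, 40 of them in 17 ribosomal protein genes, and 32 in long noncoding RNA (lncRNA) genes, which include the SNHG (snoRNA host gene) family. SNORD3A, SNORD3B-2 and SNORD13 had no host. In the host's canonical transcript, 102 members were intronic and 4 were exonic, and 12 lay outside it. The intronic ones sat a median of 95.5 bases upstream of the next exon, with 55 of them at 60 to 100 bases. Their 5' ends lay a median of 2671.5 bases from the host's canonical start, and 1 lay within 200 bases of it.

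The table counts reads at starts, and other starts are often near. The 5' end of 50 members lay within 200 bases of another annotated transcript start on the same strand, that of 51 at over 200 and up to 1000 bases and that of 20 farther away. The nearest values to these bounds were 182 and 205 bases, and 995 and 1160 bases. An exon of some same-strand transcript covered 88 members, and 7 had a gene on the opposite strand. No source used here says how far counting windows reached or whether strand was used. For listed gene pairs with starts at most 25 bases apart, the median absolute log2 ratio of reads was 0.157 on the same strand (77 pairs) and 2.47 on opposite strands (89 pairs), so that reads of a member and of a same-strand start this close cannot be told apart.

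Taken as a group, C/D snoRNA genes made up a much smaller share of reads in control IPs than in the other libraries. Their share was 3.298% to 3.81% in the control inputs, 1.14% to 1.26% in the control IPs, 3.33% to 3.56% in the KO inputs and 3.48% to 3.69% in the KO IPs. The control IPs lay below every other library, and the other 3 groups overlapped each other. Without SNORD32A the KO IPs, at 3.33% to 3.55%, lay above every input, at 2.67% to 3.23%. The mean share was 3.53% ± 0.259 in control inputs, 1.19% ± 0.0677 in control IPs, 3.43% ± 0.116 in KO inputs and 3.59% ± 0.104 in KO IPs (SD, n = 3 each). It was 2.97 times as high in control inputs as in control IPs, and 3.02 times as high in KO IPs as in control IPs. With 3 libraries against 3, a two-sided exact permutation test cannot go below p = 0.1, and it gave 0.1 for both of these differences, 0.2 for KO IP against KO input and 0.7 for the inputs (adjusted over 4 comparisons 0.2, 0.2, 0.267 and 0.7). A share in bulk RNA cannot tell fewer molecules per cell from fewer cells that hold them.

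**Figure D1:**
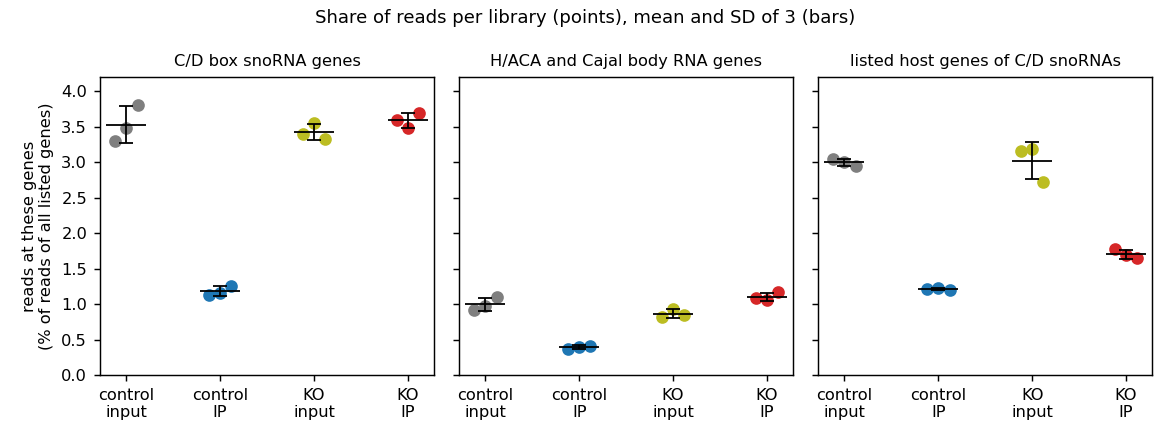
Reads at C/D box snoRNA genes, at H/ACA snoRNA and Cajal body RNA genes and at the listed C/D host genes, as a percentage of the reads of all listed genes in each of 12 libraries (points), with the mean and SD of 3 libraries (bars). For the C/D genes the 3 control IPs sit at 1.14% to 1.26%, below the other 9 libraries, while for the host genes the KO IPs, at a mean of 1.71%, lie below all inputs.

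Other classes did not all follow the same course. H/ACA and Cajal body RNA genes took 1.001% ± 0.0908 of reads in control inputs, 0.397% ± 0.0253 in control IPs, 0.869% ± 0.0614 in KO inputs and 1.11% ± 0.0561 in KO IPs (SD, n = 3 each). The 58 listed host genes took 2.999% ± 0.0503, 1.22% ± 0.0147, 3.03% ± 0.262 and 1.71% ± 0.0620 in the same order, so that in KO IPs they stayed below both inputs. Mitochondrial genes, which took 0.946% ± 0.152 of reads in control IPs, took 1.95% ± 0.359 in KO IPs and 0.727% ± 0.112 in KO inputs. Their part in the snoRNA result was not tested, although the snoRNA share was 1.22% in control IPs and 3.85% in KO IPs when mitochondrial and snoRNA reads were left out of the denominator.

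A few members supplied most of these reads. Over the pooled reads of all 12 libraries, SNORD32A took 13.7% of C/D snoRNA reads, SNORD68 9.53%, SNORD55 5.92%, SNORD37 5.67% and SNORD46 5.07%. The order differed between inputs and IPs: SNORD32A held rank 1 in every input, with 15.2% to 21.1% of C/D snoRNA reads, and 4 to 10 in the IPs, with 3.88% to 5.83%. These are shares of reads, not levels, because the counted lengths are not given. The 20 members with the most reads held 80.3%, and at the other end 51 members had under 20 reads on average in at least 1 group. All 121 had been kept by the authors, 73 reached a mean log2 CPM of 3, and 100 had a read in every library.

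In control cells most C/D snoRNA genes were lower in the IP than in the input on the deposited scaling. Between control IP and control input, 85 of 121 members were called lower and 6 higher (limma, adjusted p under 0.05), against 28.2% lower and 27.7% higher over all genes. The median difference was -1.46 on the log2 CPM scale for members and -0.01 for all genes, and IP and input values did not overlap for 94 members (66.5% of all genes). For H/ACA and Cajal body RNA genes it was 68 lower and 2 higher of 91, and for the listed hosts 37 lower and 9 higher of 58. When libraries were centred on ribosomal protein mRNAs, which shifts the median of all genes by over 1 on the log2 scale to 1.32, the split of members became 30 lower and 28 higher (44 and 27 when centred on their mean). The median of members was then -0.13, still below the 1.32 of all genes (-0.27 against 1.17 with the mean). The share of all genes called under these scalings was not counted, here or in later comparisons.

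In PCIF1 KO cells the members spread to both sides. Between KO IP and KO input, 42 were called higher and 30 lower (all genes 28.4% and 31.0%), with a median of 0.10 (all genes -0.07) and no overlap for 83 (all genes 61.3%). Centred on the mean of ribosomal protein mRNAs the split was 59 higher and 15 lower, where the median of all genes was 0.55 and that of members 0.71. Of the members lower in control cells, 24 were higher in KO cells, 29 lower and 32 not called. The matching split over all genes was not counted, so this one cannot be read as particular to the members. The 6 rows (5 loci) that were higher in control cells, SNORD57, SNORD82, SNORD38B, SNORD110 and SNORD72, were also higher in KO cells. Without control input 1, without control input 2 or without control IP 3 the 6 fell to 2.

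The difference between these enrichments, control minus KO, was negative for 114 of 121 members. It was called lower for 85 members and higher for 0 (all genes 13.0% lower and 15.8% higher), with a median of -1.64 against 0.06 over all genes, and the values did not overlap for 97 (all genes 53.2%). At an unadjusted p under 0.05 the limma fit also gave 0 higher, and so did the fit on recovered reads after adjustment. The 7 members with a positive value had at most 12 reads in any library. Among the 70 members with at least 20 mean reads in every group, 68 were called lower, and SNORD110 and 1 SNORD22 locus were not. The share over all genes with as many reads was not counted, so the 13.0% is no like measure for these 70. For H/ACA and Cajal body RNA genes 48 of 91 were called lower and 0 higher, with a median of -1.61. Scaling mattered here too: 37 members were called lower and 1 higher, with a median of -0.49, when libraries were centred on the median of ribosomal protein mRNAs (all genes 1.21), and 72 and 1, with a median of -1.08, when centred on their mean (all genes 0.62).

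**Figure D2:**
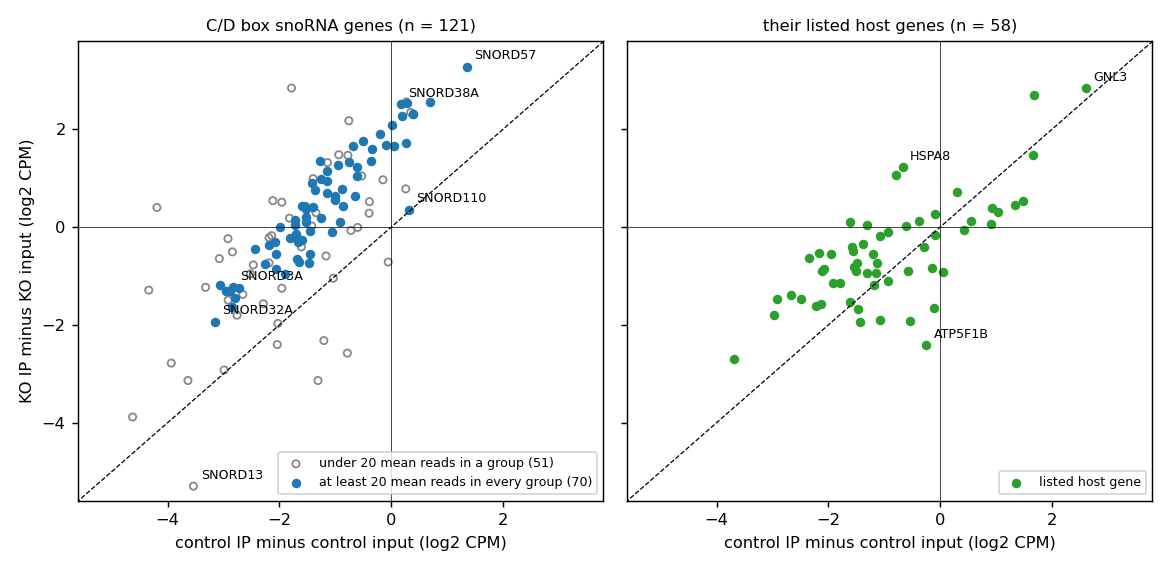
Control IP minus control input (x axis) against KO IP minus KO input (y axis), both in log2 CPM, for 121 C/D snoRNA genes (left) and their 58 listed host genes (right), with equal values on the dashed line. Filled blue points are the 70 members with at least 20 mean reads in every group, and on the deposited scaling they lie above the line except for SNORD110, which sits on it. Grey rings are the 51 with fewer reads, where fitted values rest on few counts.

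The same change stood out between the IPs themselves. Between KO IP and control IP 96 members were called higher and 1 lower (all genes 23.0% and 26.0%), with a median of 1.53 against -0.04 over all genes and no overlap for 99 (all genes 54.6%). H/ACA and Cajal body RNA genes gave 58 higher and 0 lower of 91, and listed hosts 33 higher and 13 lower of 58. Centred on the median of ribosomal protein mRNAs, which moves the median of all genes to -1.16, the counts were 35 higher and 3 lower, and on their mean 80 and 1. The median of members was then 0.42, and 1.01 with the mean (all genes -0.57). The count lower was 2 without KO IP 3. Between the inputs little differed: 2 members were called higher and 11 lower in KO inputs (all genes 5.56% and 5.67%), with a median of -0.16 and no overlap for 35 (all genes 31.7%). A fit on recovered reads called 22 lower between inputs, and without control input 3 the count was 7. The higher count was 1 when control input 1, 2 or 3 or KO input 1 or 2 was left out.

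Capped members transcribed from their own promoters come first by role. SNORD3A encodes U3, the snoRNA that base pairs with the ribosomal RNA precursor for its first cleavages. It held 110, 104 and 80.6 CPM in control inputs, 15.2, 14.8 and 11.2 in control IPs, 102, 106 and 132 in KO inputs, and 42.7, 39.5 and 64.8 in KO IPs. No IP reached any input, and each KO IP lay above each control IP. The IP was lower than the input by a log2 difference of -2.84 ± 0.18 in control cells (adjusted p = 5.05e-11) and -1.23 ± 0.18 in KO cells (adjusted p = 5.19e-06), and the difference of these was -1.61 ± 0.25 (adjusted p = 7.31e-05).

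The other capped members were near the limit of counting. SNORD118 encodes U8, which is needed for maturation of the large subunit RNAs and lies here in an exon of TMEM107. It gave 22, 17 and 18 reads in control inputs, 4, 2 and 3 in control IPs, 19, 20 and 24 in KO inputs and 3, 6 and 5 in KO IPs. Both IPs were below their inputs (-2.66 ± 0.42 in control, -1.38 ± 0.42 in KO cells). Their difference, -1.28 ± 0.59, missed the threshold (adjusted p = 0.115). SNORD13 encodes U13, a capped guide of RNA acetylation in the small subunit. It gave 7, 5 and 4 reads in control inputs, 0, 0 and 1 in control IPs, 12, 9 and 9 in KO inputs and 0 in each KO IP. With a floor of 3 counts over the group, the KO IPs were 6.27-fold lower than the KO inputs. The counting error of the inputs is not covered by this. SNORD3B-2, a second U3 copy, had at most 7 reads in any library, and near-identical U3 copies can split reads.

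U14, encoded by the SNORD14 genes, is needed for processing of the small subunit RNA and also guides a methylation. All 5 copies were called lower in the difference of enrichments, from -1.77 ± 0.23 for SNORD14C to -2.35 ± 0.16 for SNORD14A. SNORD14A held 89.8, 100 and 109 CPM in control inputs, 53.4, 66.7 and 65.1 in control IPs, 73.2, 72.9 and 66.3 in KO inputs and 203, 219 and 249 in KO IPs. Its control IPs were thus below the inputs and its KO IPs above every other library, with a log2 difference of -0.69 ± 0.11 in control cells (adjusted p = 2.86e-05) and 1.65 ± 0.11 in KO cells (adjusted p = 1.93e-10).

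The HSPA8 copies of U14 went the same way. SNORD14D held 76.4, 95.4 and 113 CPM in control inputs, 37.1, 42.6 and 48.3 in control IPs, 77.8, 107 and 101 in KO inputs and 164, 176 and 210 in KO IPs. As for SNORD14A, the groups did not overlap between IP and input in either genotype, and the direction turned from lower (-1.14 ± 0.15) to higher (0.95 ± 0.15). SNORD14B turned as well (-1.39 ± 0.15 and 0.42 ± 0.15), although its KO values overlapped. For SNORD14C and SNORD14E the KO difference did not pass (-0.30 ± 0.16 and 0.42 ± 0.21). When centred on ribosomal protein mRNAs, the control values of SNORD14A and SNORD14D turned to 0.64 and 0.19 and so did those of both SNORD22 loci (0.06 and 0.27). The difference between IPs stayed positive for all 5 copies under that scaling, at 0.27 to 1.01, and passed the test for all but SNORD14B.

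SNORD22 encodes U22, which acts in processing of the small subunit RNA, and stands at 2 loci of SNHG1. The locus at chr11:62852910-62853035 held 15.9, 16.1 and 15.8 CPM in control inputs, 6.36, 5.32 and 8.45 in control IPs, 15, 22 and 25.1 in KO inputs and 46.2, 39.5 and 75.1 in KO IPs. Its KO IPs exceeded all other libraries, and its difference of enrichments (-2.63 ± 0.33, adjusted p = 9.21e-06) was the most negative among members with a mean log2 CPM of at least 3. The locus at chr11:62854161-62854285 held 27, 36 and 24 reads in KO IPs and 18, 21 and 27 in control IPs, and its difference of -0.96 ± 0.39 did not pass (adjusted p = 0.07).

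**Figure D3:**
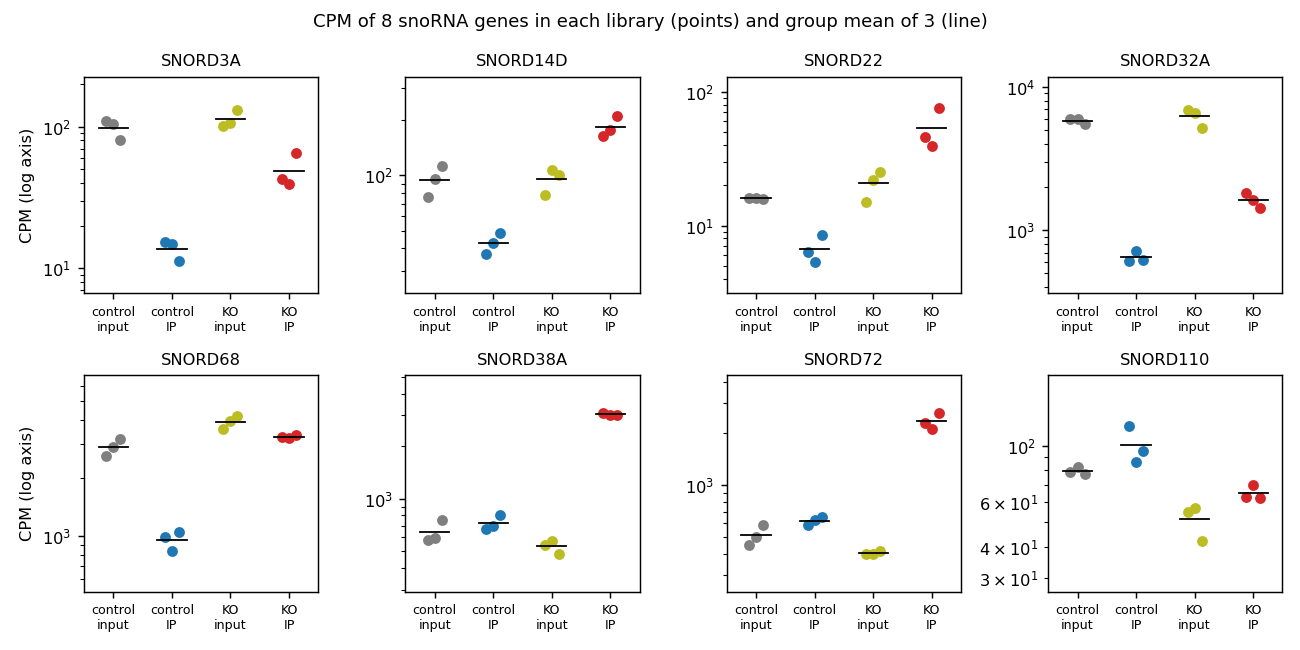
CPM on a log axis in each of 12 libraries (points) and the mean of each group of 3 (lines) for 8 C/D snoRNA genes, with SNORD22 shown for its locus with more reads. In the first 7 panels the 3 KO IPs lie above the 3 control IPs, and only in the panel of SNORD110 do they lie below.

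Most other members guide 2'-O-methylation, and those with the most reads differed in how far the control IPs lay below the inputs. SNORD32A, in RPL13A, held 5982, 5993 and 5463 CPM in control inputs, 615, 717 and 623 in control IPs, 6893, 6589 and 5170 in KO inputs and 1805, 1619 and 1436 in KO IPs. The 4 groups formed 3 levels, with the inputs highest, the KO IPs between and the control IPs lowest. In every IP of either genotype it lay below SNORD68. The IP was 8.93-fold below the input in control cells and 3.83-fold in KO cells, and the log2 difference of enrichments was -1.22 ± 0.16 (adjusted p = 1.69e-05).

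SNORD68, in RPL13, was 1 of 2 members called higher in KO inputs. It held 2590, 2887 and 3166 CPM in control inputs, 983, 836 and 1051 in control IPs, 3597, 3953 and 4169 in KO inputs and 3271, 3201 and 3319 in KO IPs. Every KO input lay above every control input (0.44 ± 0.11, adjusted p = 0.0087), as for its host RPL13 (0.32 ± 0.09, adjusted p = 0.0217). The log2 difference of IP from input was -1.59 ± 0.11 in control cells and -0.26 ± 0.11 in KO cells, the latter turning to 0.36 when centred on the mean of ribosomal protein mRNAs. The remaining members of the 5 with most reads, SNORD55, SNORD37 and SNORD46, had differences of enrichments of -1.03 ± 0.12, -1.77 ± 0.14 and -1.30 ± 0.14. SNORD55 and SNORD46 were lower in control IPs than in inputs (-0.92 ± 0.09 and -0.87 ± 0.10), and SNORD46 was higher in KO IPs (0.43 ± 0.10). Centred on the median of ribosomal protein mRNAs, these control values turned to 0.41 and 0.46, and the difference of enrichments of SNORD55 to 0.12.

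A further set was about as frequent in IP as in input in control cells and well above input in KO cells. SNORD38A held 576, 595 and 752 CPM in control inputs, 669, 695 and 802 in control IPs, 539, 574 and 481 in KO inputs and 3085, 3015 and 3011 in KO IPs. Control groups overlapped (0.18 ± 0.11, adjusted p = 0.17), and the KO IPs were 5.73-fold above the KO inputs (2.52 ± 0.11, adjusted p = 2.93e-13). SNORD72, in RPL37, held 450, 499 and 588 CPM in control inputs, 586, 631 and 652 in control IPs, 396, 399 and 415 in KO inputs and 2291, 2131 and 2635 in KO IPs. Its control groups overlapped by a single input, and it rose by 0.29 ± 0.10 in control cells (adjusted p = 0.021) and 2.54 ± 0.10 in KO cells (adjusted p = 1.59e-13).

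SNORD82 lies in NCL, the gene of nucleolin. It held 55.7, 55.5 and 69.2 CPM in control inputs, 91.6, 85.6 and 116 in control IPs, 46.8, 53.4 and 52.0 in KO inputs and 251, 313 and 340 in KO IPs. Each IP exceeded its inputs in both genotypes (0.70 ± 0.13 and 2.56 ± 0.13), and the difference was -1.86 ± 0.19 (adjusted p = 7.96e-07). SNORD88A, in C19orf48P, was not called in control cells (0.18 ± 0.15) and was higher in KO cells (2.26 ± 0.15). Among the 10 members with the largest differences were also SNORD42A, SNORD4B, SNORD12, SNORD100, SNORD138 and SNORD50B, at -2.31 to -2.12, all lower than input in control cells and higher in KO cells. Centred on the median of ribosomal protein mRNAs, the control values of SNORD4B, SNORD138, SNORD12 and SNORD100 turned to 0.83, 0.38, 0.18 and 0.07. SNORD30, an SNHG1 member, and SNORD52 had, after SNORD22, the largest differences between IPs, taken over members whose mean log2 CPM reached 3 (2.43 ± 0.21 and 2.19 ± 0.16).

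At the depleted end, SNORD52 in SNHG32, SNORD96A in RACK1, SNORD86 in NOP56, SNORD12C in ZFAS1, SNORD18A in RPL4 and SNORD36A in RPL7A stayed below input in both genotypes. SNORD96A, for example, held 992, 1017 and 1217 CPM in control inputs, 134, 117 and 171 in control IPs, 1183, 1110 and 1036 in KO inputs and 431, 449 and 463 in KO IPs. Its KO IPs were above the control IPs (1.69 ± 0.12) and below all inputs. The 5' end of SNORD96A lies 12 bases from an annotated RACK1 start, so that reads of both cannot be told apart. Over these 6 members the control difference ran from -3.06 to -2.80 and the KO difference from -1.63 to -1.19. SNORD49B, SNORD105, SNORD105B and SNORD26 had, beside SNORD110, the smallest differences among members with a mean log2 CPM of at least 3, from -0.94 to -0.74, all still called lower. Centred on the median of ribosomal protein mRNAs these 4 turned positive, to between 0.22 and 0.42.

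NOP56, which encodes a core protein of C/D snoRNA particles, hosts 4 members and was not itself listed. Each begins within 22 bases of an annotated NOP56 transcript start, so that reads from such starts and from the snoRNAs cannot be told apart. SNORD57 held 34.2, 36.0 and 45.9 CPM in control inputs, 85.5, 93.5 and 117 in control IPs, 18.7, 15.5 and 18.6 in KO inputs and 162, 166 and 186 in KO IPs. No group overlapped another, and its rise over input, by 1.35 ± 0.14 in control and 3.28 ± 0.14 in KO cells (adjusted p = 2.92e-13), was the largest of the members with a mean log2 CPM of at least 3 in both genotypes.

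SNORD110 differed from the rest. It held 78.8, 82.1 and 77.7 CPM in control inputs, 120, 86.7 and 95.3 in control IPs, 54.9, 56.9 and 42.0 in KO inputs and 62.9, 70.2 and 62.5 in KO IPs. The IPs were slightly above their inputs in both genotypes (0.33 ± 0.13 and 0.36 ± 0.13), and the KO libraries were below the control libraries in both inputs and IPs. The difference of enrichments was -0.03 ± 0.18 (adjusted p = 0.916; 1.12 when centred on the median of ribosomal protein mRNAs), and it was the sole member called lower in KO IPs (-0.61 ± 0.13, adjusted p = 0.000688).

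Members called lower in KO inputs included 3 of the 4 in NOP56. SNORD57 was lower by -1.13 ± 0.14, SNORD56 by -0.81 ± 0.17 and SNORD110 by -0.65 ± 0.13, while SNORD86 did not pass (-0.73 ± 0.26, adjusted p = 0.0802). Between IPs, SNORD57, SNORD56 and SNORD86 were higher in KO (0.80 ± 0.14, 0.86 ± 0.17 and 0.69 ± 0.26), but turned to -0.31, -0.26 and -0.43 when centred on the median of ribosomal protein mRNAs. SNORD2, in the translation factor gene EIF4A2, held 36.4, 44.3 and 48.2 CPM in control inputs and 16.4, 19.8 and 20.5 CPM in KO inputs. These groups were far apart (-1.18 ± 0.23, adjusted p = 0.00209), and the host EIF4A2 was lower too (-0.48 ± 0.13, adjusted p = 0.0169). SNORD61, in RBMX, was also lower (-0.99 ± 0.22). SNORD26 in SNHG1 was the second member called higher in KO inputs (0.45 ± 0.13), beside its host (0.53 ± 0.10). Its 5' end lies 1 base from an annotated SNHG1 start, so that reads of SNORD26 and of that start cannot be told apart.

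Hosts with several members allowed a comparison of neighbours. GNL3 encodes a nucleolar GTPase. Its own start was higher in IP than input in both genotypes (2.62 ± 0.15 and 2.84 ± 0.15) and differed little between IPs (-0.23 ± 0.15, adjusted p = 0.212). Of its 4 snoRNAs, 3 were lower than input in control cells, and all 4 were higher in KO IPs (1.05 to 2.52). None of the 4 passed when centred on the median of ribosomal protein mRNAs, and SNORD69 turned to -0.066. Centred on their mean, SNORD19, SNORD19B and SNORD19C passed (1.99, 0.89 and 0.92), and SNORD69 did not (0.53).

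In several other hosts the gene, like its snoRNAs, was higher in KO IPs than in control IPs on the deposited scaling. HSPA8, a chaperone gene, held 525, 541 and 527 CPM in control inputs, 301, 340 and 362 in control IPs, 613, 610 and 497 in KO inputs and 1332, 1401 and 1286 in KO IPs. Its own difference of enrichments was -1.90 ± 0.14, inside the range of its 3 U14 copies (-2.10 to -1.77). Its IP minus input values lay above those of the copies, at -0.67 ± 0.10 in control cells (copies -2.08 to -1.14) and 1.23 ± 0.10 in KO cells (copies -0.30 to 0.95). SNHG1, SNHG29, ZFAS1 and RPL4 were, like their members, higher in KO IPs, by 1.18 ± 0.10, 1.01 ± 0.10, 1.48 ± 0.30 and 0.98 ± 0.12. Also called higher were RPL3 (1.01 ± 0.11), RPL13A (1.08 ± 0.26), RPL7A (0.60 ± 0.18) and RPL17 (0.36 ± 0.08). Centring on the median of ribosomal protein mRNAs moves the median of all genes between IPs from -0.04 to -1.16. That shift is larger than the values of SNHG29, RPL4, RPL3, RPL13A, RPL7A and RPL17, so their direction holds for the deposited scaling. RPL23A (0.23 ± 0.20) and C19orf48P (0.52 ± 0.29) were not called, although 3 of 4 and 3 of 3 of their members were called higher. ATP5F1B, which encodes the ATP synthase beta subunit, was lower in KO IPs and was picked after its values were seen. This host was at 1467, 1403 and 1448 CPM in the control IPs but 295, 349 and 332 in the KO IPs (-2.15 ± 0.09), while its SNORD59A was at 280, 253 and 289 CPM in the control IPs but 623, 668 and 568 in the KO IPs (1.18 ± 0.10).

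**Figure D4:**
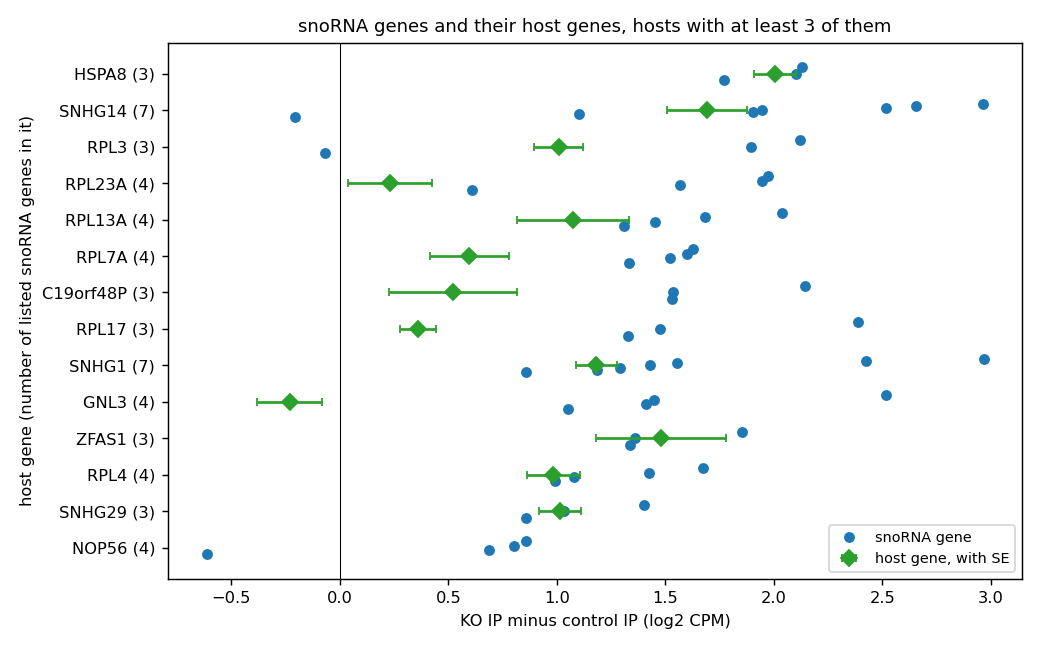
KO IP minus control IP in log2 CPM for C/D snoRNA genes (circles) and their host (diamonds, with SE) in hosts with at least 3 listed members, leaving out 1 host that is not reported here. On the deposited scaling GNL3 lies below 0 and each of its members above it (SNORD69 turns to -0.066 when centred on the median of ribosomal protein mRNAs), while in HSPA8 the host lies among its members. NOP56 has no diamond because it was not listed.

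Over all 111 pairs of a member and its listed host, the member's value was above the host's in 96 pairs for KO IP against control IP, in 75 for KO IP against KO input and in 42 for control IP against control input. In the difference of enrichments it was below in 94. Pairs of the same host share its value and are not independent. Where both were called, they went in opposite directions in 11 of 69 pairs between IPs and in 6 of 46 pairs in the difference of enrichments. The counts were 19 of 49 for KO IP against KO input and 9 of 68 for control IP against control input. Ribosomal protein genes that host no C/D snoRNA, 60 of the 77 listed, had a median difference of enrichments of -0.57, against -1.80 for the 40 members in ribosomal protein hosts.

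By position, host and sequence, median differences of enrichments of the larger classes ran from -1.80 to -1.57. Across all genes the median was 0.06, and 13.0% were called lower. By distance to the nearest other start, 34 of 50 members within 200 bases, 38 of 51 at over 200 and up to 1000 bases and 13 of 20 farther away were called lower in the difference of enrichments, with medians of -1.63, -1.59 and -1.77. By host, 32 of 40 in ribosomal protein genes, 28 of 41 in other coding genes and 20 of 32 in lncRNA genes were called lower, with medians of -1.80, -1.67 and -1.57. Of the 3 members without a host, SNORD3A alone was called lower, and the median was 1.76, with SNORD13 and SNORD3B-2 at no more than 12 reads in a library. With both boxes found it was 49 of 71 (median -1.67), and without 36 of 50 (-1.60). None of these differences between classes was tested.

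**Figure D5:**
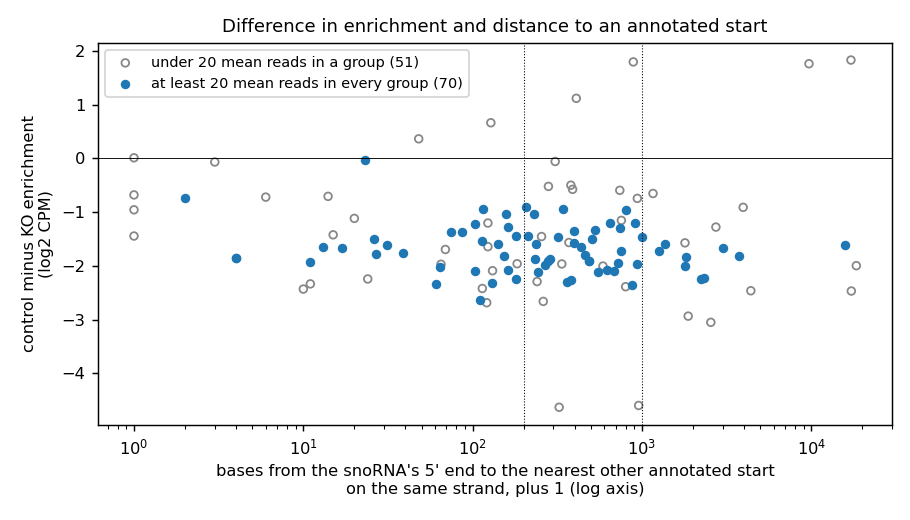
Control minus KO enrichment in log2 CPM (y axis) against the distance from each member's 5' end to the nearest other annotated start on the same strand plus 1 base (x axis, log scale), with dotted lines at 200 and 1000 bases. Members with at least 20 mean reads in every group (blue) lie below 0 at all distances on the deposited scaling, with SNORD110 at -0.03, and the positive values belong to members with fewer reads (grey rings).

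PCIF1 acts on adenosine at a capped start, and so members were also read by the first base of the annotated RNA, which for intronic snoRNAs is a trimmed end. Of 23 that begin with A, 16 were called lower in the difference of enrichments (median -1.65), where 13.0% of all genes were called lower. For C it was 13 of 17 (-1.37), for G 29 of 47 (-1.67) and for T 27 of 34 (-1.78). Members that begin with A thus had a median within the range of those with the other bases.

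Members of the imprinted SNORD116 cluster, which belongs to the Prader-Willi region and lies within SNHG14 transcripts, had few reads. They and SNORD94 were picked for their low counts. The 8 listed copies together gave 30 to 47 reads in control inputs, 5 to 9 in control IPs, 33 to 47 in KO inputs and 11 to 24 in KO IPs. SNORD116-14 had no read in any control IP against 15 in control inputs, which makes it 5.92-fold lower with a floor of 3 counts over the group. SNORD94, in PTCD3, likewise had no read in control IPs against 18 in control inputs, 7.10-fold lower with the same floor. Neither value covers the counting error of the inputs. The copies are near-identical, and reads among them can be split or lost. The host SNHG14 held 4.50, 5.59 and 5.66 CPM in the control IPs but 17.7, 15.2 and 17.8 in KO IPs (1.69 ± 0.18, adjusted p = 3.35e-07).

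Among the mRNAs of proteins that make and use these RNAs, most called differences of enrichments were positive on the deposited scaling, opposite in sign to those of the members. Centring on the median of ribosomal protein mRNAs moves the median of all genes from 0.06 to 1.21. The lists here and in the next paragraph were not recounted under it. Of the core proteins, NOP58 had a positive difference of enrichments (1.53 ± 0.15, adjusted p = 7.95e-07), while fibrillarin (FBL, 0.11 ± 0.15) and SNU13 (0.50 ± 0.21) did not pass. Over all genes 15.8% were called higher and 13.0% lower. Of 10 assembly factors 5 were called higher and 1 lower, among them the scaffold NUFIP1 (1.27 ± 0.26), the chaperone HSP90AA1 (0.97 ± 0.18), the ATPase RUVBL2 (0.71 ± 0.16) and NOPCHAP1 (0.78 ± 0.20). The lower one was RPAP3 (-1.67 ± 0.52), named after its value was seen. Of 6 listed genes of a list drawn up for maturation and transport of capped snoRNAs, the nucleolar chaperone NOLC1 was higher (1.27 ± 0.16). LARP7, placed in that list without evidence here for such a role, was lower (-0.98 ± 0.23).

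In the difference of enrichments, factors that process intronic snoRNAs gave 6 higher of 16 and 1 lower (all genes 15.8% and 13.0%). The lower one was the exonuclease XRN2 (-0.54 ± 0.18). The debranching enzyme DBR1, which opens the intron lariat, was at 1.56 ± 0.22, the helicase AQR at 0.89 ± 0.17 and the exosome subunits EXOSC4 and EXOSC7 at 0.87 ± 0.14 and 0.58 ± 0.17. Of 10 U3 particle proteins 5 were called higher and 0 lower, with MPHOSPH10 at 1.78 ± 0.38, IMP4 at 0.64 ± 0.18, RRP9 at 0.54 ± 0.16 and UTP11 at 0.53 ± 0.17. Over all 45 listed genes of these lists, KO inputs and control inputs differed for 1, the assembly chaperone HSP90AB1 (all genes 5.56% higher and 5.67% lower).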

How the data were processed

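Per the labels, m6Am-Exo-Seq libraries of MEL624 cells were sequenced, and 12 of the 30 libraries in the series are covered by the deposited table. Its values are log2 CPM (read counts scaled to library size) per gene start, made and deposited by the authors. The submitters' processing notes name featureCounts, HISAT2 2.0.4, edgeR 3.12.1, R 3.3.3, deepTools 3.0.2, SAMtools 1.7 and hg38, with no role or order. Annotation, window and strand setting are given in no source used here. All 16009 genes were fitted with limma 3.58.1 (R 4.3.3) on the deposited log2 values, with 4 group means, a mean-variance trend, no further filter and Benjamini-Hochberg adjustment over all genes, and a gene was called at an adjusted p under 0.05. Values are log2 differences ± SE on the deposited scale, with 3 libraries per group. The script was tested on simulated data.

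Whole reads were recovered from the log2 values (100% of values within 0.01 of a whole number, with an added count of 0.25) and used for depth, shares and floors. CPM in the text is the deposited value back-transformed, with this addition. Floors cover counting error in the group without reads only, not that of the other group or the scatter between libraries. Columns carry group names and numbers while labels carry letters, so columns were tied to groups and not to single samples. Gene positions, hosts and sequences come from GENCODE 44 and hg38. Python 3.11.15, pandas 2.3.3 and numpy 2.4.6 were used.

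The members and lists were chosen with earlier results of these data known. Named are all capped members, the U14 and U22 members, the 10 largest and 5 smallest differences of enrichments and the 5 largest each way in every other comparison (mean log2 CPM of at least 3, called), the 5 with most reads, hosts with at least 3 members and up to 4 genes per pathway list. Alternatives changed the scaling, the added value on the log scale, filters, member sets and libraries, and the closing section gives their effect. In addition, 1 host gene and the sequence and position of 1 member are not reported here.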

Additional observations from a re-analysis of the deposited data

Results flagged for a closer look

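For 12 of the named members, IP lay below input in control cells and above it in PCIF1 KO cells, each with a called difference, and the difference between the genotypes itself passed the limma test. Groups of 3 libraries were not examined for single libraries far from the others. On the log2 CPM scale, control minus KO, the U14 and U22 members among them stood at -2.35 for SNORD14A, -1.81 for SNORD14B, -2.10 for SNORD14D and -2.63 for SNORD22 at its locus with more reads. Of the guides of methylation, SNORD42A stood at -2.31, SNORD12 at -2.30, SNORD4B at -2.27, SNORD100 at -2.25, SNORD138 at -2.22, SNORD50B at -2.12, SNORD56 at -1.67 and SNORD46 at -1.30. Centred on the median of ribosomal protein mRNAs, the control value changed sign in 9 of these 12, so that the turn in direction holds for the deposited scaling. Several of the 12 were named for the size of their difference of enrichments in these data, so their number is no separate evidence. Of all 121 members, 24 were called lower in control cells and higher in KO cells, and no such count was made over all genes.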

How the results depend on the processing

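Directions in control cells and between IPs depended on the scaling. Centred on the median of ribosomal protein mRNAs, members called higher and lower numbered 28 and 30 in control cells, 1 and 37 in the difference of enrichments, 0 and 5 between inputs and 35 and 3 between IPs. Centred on their mean, 27 and 44 were called in control cells, 15 were lower in KO cells and 1 was higher in the difference of enrichments. Shares over all genes called under these scalings were not counted. Control values that turned, under the median and then the mean, were those of SNORD14A (0.64, 0.49), SNORD14D (0.19, 0.043), SNORD12 (0.18, 0.028), SNORD4B (0.83, 0.68), SNORD138 (0.38, 0.23), SNORD56 (0.71, 0.57), SNORD55 (0.41, 0.26), SNORD46 (0.46, 0.31) and the SNORD22 locus with fewer reads (0.27, 0.12), and under the median alone the other SNORD22 locus (0.057) and SNORD100 (0.071). Differences of enrichments turned for SNORD110 (1.12, 0.54) and, under the median alone, for SNORD26 (0.42), SNORD105B (0.25), SNORD105 (0.22), SNORD49B (0.22) and SNORD55 (0.12). Between IPs, the median turned SNORD105B (-0.30), SNORD49B (-0.26), SNORD57 (-0.31), SNORD86 (-0.43), SNORD18A (-0.13), SNORD2 (-0.31), SNORD61 (-0.025), SNORD56 (-0.26) and SNORD55 (-0.14). In KO cells the mean turned SNORD105B (0.061) and SNORD68 (0.36). The cause was not tested.

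Without members that have another start within 200 bases, 71 were left, which lowers counts by construction: higher and lower calls were 3 and 47 in control cells, 27 and 19 in KO cells, 0 and 51 in the difference of enrichments, 1 and 4 between inputs and 56 and 0 between IPs. The shares over all genes are given with each comparison above. Among the 70 members with at least 20 reads, 19 were lower in KO cells, and no such count was made over all genes with as many reads. The voom fit on recovered reads, chosen after seeing the data like the centring on the mean and the thinning of reads, called 22 lower between inputs. Leaving out each library gave 2 to 6 higher and 77 to 87 lower in control cells, 39 to 44 and 26 to 33 in KO cells, 0 and 77 to 86 in the difference, 1 to 2 and 7 to 14 between inputs, and 89 to 98 and 1 to 2 between IPs. Shares stayed at 3.39% to 3.64% in control inputs, 1.15% to 1.21% in control IPs, 3.36% to 3.48% in KO inputs and 3.54% to 3.64% in KO IPs. Without SNORD32A the share was 2.91% in control inputs, 2.77% in KO inputs and 3.43% in KO IPs, and with mitochondrial and snoRNA reads out of the denominator 3.61% in KO inputs and 3.85% in KO IPs. Depth limits the 51 members with under 20 mean reads in a group, of which 17 were called in the difference of enrichments. Deviations from group means correlated over 0.1 between the input and the IP of the same column number in 4 of 6 pairs (0.07 to 0.244 over all 6). Within a genotype 12 of 12 libraries correlated best with their own number. This is a hint of pairs from the data and not from the design. No label ties column numbers to replicates, so the main fit left out this possible pairing. The column number as a replicate block, added after seeing the data, called 19 lower between inputs, against 11 without it. The planned block on the labels' letters, which columns lack, and the planned count tests with edgeR and DESeq2 were not run.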
